A study of Mus musculus with 8 samples.

Results

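The genes described here are 9 genes of the LIF-STAT3 pathway in mouse embryonic stem cells (ESCs): the ligand *Lif*, the receptor chains *Lifr* and *Il6st*, the kinase *Jak1*, the transcription factor *Stat3*, and its targets *Socs3*, *Pim1*, *Pim3* and *Gbx2*. They were taken by name from a table of 50600 rows, and each name was found once. *Gbx2* was put on the list because it was much higher when the compounds PFI-3 and BI-9564 were given together. Its values against DMSO and in that combination are therefore a description without a test, and the question asked of the data is whether the other STAT3 targets follow it.

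All 8 libraries came from JUN-TetON ESCs, an OG2 transgenic line on a mixed 129SVJ, C57B6 and CBA background at passage P12, in which doxycycline switches on *Jun*. All cells were grown without feeders in medium with serum, LIF and the inhibitors PD0325901 (of MEK) and Chir99021 (of GSK3), and all received 2 µg/ml doxycycline. The 4 groups, each of 2 libraries, differed only in the compound added: DMSO (the solvent), PFI-3 (an inhibitor of the BRG1 bromodomain), BI-9564 (an inhibitor of the BRD7 and BRD9 bromodomains) or both, called P+B. Since each group had LIF and doxycycline, no library shows the pathway without its ligand or the cells without JUN. The labels give 6 h for doxycycline and compound alike. The study describes an induction of JUN that began before the compounds, so the length of induction is not settled here. The labels give no doses, so it cannot be told from them whether P+B held as much of each compound as the single treatments. They do not say whether the 2 libraries of a group came from separate cultures, and p-values then measure only the spread between these libraries.

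LIF is the cytokine that keeps mouse ESCs in self-renewal. It brings LIFR together with gp130, the product of *Il6st*, and the JAK1 kinase bound to these chains phosphorylates STAT3, which enters the nucleus and switches on genes that include *Socs3*, *Pim1*, *Pim3*, *Gbx2*, *Tfcp2l1* and *Klf4*. SOCS3 in turn shuts the receptor down, so that its gene is both a target and a brake. An mRNA level does not measure STAT3 phosphorylation, and in a bulk library fewer cells that express a gene cannot be told apart from less RNA per cell.

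Values are TPM, the share of a library's transcripts that belongs to a gene, deposited as whole numbers, which keep no depth. TPM is scaled to transcript length, so levels may be compared between genes. Differences are on the scale of log2(TPM + 1), on which changes of weakly expressed genes come out too small. Tested with limma were the 10222 genes that averaged 5 TPM or more, and a gene was called when its Benjamini-Hochberg adjusted p was under 0.05 and its fold change was at least 1.5. The smallest two-sided p that an exact permutation of 2 libraries against 2 allows is 0.333, and the calls therefore use a spread shared by the 4 groups and across genes. All 8 ES cell markers checked were at 29 TPM or more in each library, and 8 fibroblast markers were at 4 TPM or less.

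*Gbx2*, *Socs3* and *Lif* were the members whose promoter window held one of 3 letter motifs, and these stretches are shown. Each of these members held a different motif. The windows run from 250 bases before to 50 after each RefSeq transcript start (GRCm38.p6), and an entry was found for 9 of 9 members. The motifs were TTCNNNGAA, the palindrome that STAT dimers bind, TTCNNNNGAA, the same arms with a wider spacer, and TGANTCA, the AP-1 site that JUN dimers bind. Each motif is its own reverse complement, so that both strands were read at once, and neither STAT spelling can match the other at the same place. The capitals mark the match, and each sequence is read on the strand of its gene. The *Gbx2* stretch lies at chr1:89931180-89931426 on the minus strand, the *Socs3* stretch at chr11:117969502-117969530 on the minus strand and the *Lif* stretch at chr11:4257330-4257356 on the plus strand.
Gbx2: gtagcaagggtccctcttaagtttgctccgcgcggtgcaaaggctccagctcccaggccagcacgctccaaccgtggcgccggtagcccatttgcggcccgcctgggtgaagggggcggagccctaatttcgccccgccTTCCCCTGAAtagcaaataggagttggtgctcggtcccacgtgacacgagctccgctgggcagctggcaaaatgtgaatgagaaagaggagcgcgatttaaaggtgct
Socs3: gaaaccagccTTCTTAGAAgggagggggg
Lif: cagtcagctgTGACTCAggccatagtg

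The *Gbx2* match TTCCCCTGAA begins 111 bases before the transcript start, and it has the wider spacer, which 6.95% of 32851 mouse promoter windows hold. The *Socs3* match TTCTTAGAA begins 154 bases before the RefSeq start, and 8.30% of all windows hold that motif. Among the 9 members only the *Socs3* window held it. On the GENCODE annotation *Socs3* spans chr11:117966079-117970047 on the minus strand. The stretch shown therefore lies inside the gene on that annotation, and not before its start. The *Lif* match TGACTCA begins 228 bases before the start, and TGANTCA is in 7.81% of all windows. A match is a string of letters and not a bound site, and the 6 members without one have only been searched in this window.

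*Lif* was the lowest member, at 3 and 3 TPM under DMSO, 6 and 3 under PFI-3, 10 and 6 under BI-9564 and 3 and 4 under P+B. Both BI-9564 libraries were above both DMSO libraries, while PFI-3 and P+B overlapped DMSO. The mean was 8.00 ± 2.83 TPM (SD, n = 2) with BI-9564 and 3.00 ± 0.00 with DMSO, and levels this low are coarse in whole numbers. The mean of 4.75 TPM over the 8 libraries left *Lif* under the filter. With the filter lowered to a mean of 1 TPM, its log2 difference with BI-9564 was 1.13 (SE 0.37, limma, Benjamini-Hochberg adjusted p = 0.286), so it did not pass. The *Lif* gene is at chr11:4257557-4272514. The cells were fed LIF in the medium, and the level of its mRNA does not measure that supply.

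*Lifr* (chr15:7090614-7197489), the LIF-binding chain, was also low. It measured 12 and 10 TPM under DMSO, 13 and 12 under PFI-3, 11 and 9 under BI-9564 and 14 and 12 under P+B, and every treated group overlapped DMSO. With P+B its log2 difference was 0.22, with a 95% interval from −0.25 to 0.70. *Il6st* (chr13:112464070-112510086), which encodes the shared signal-transducing chain gp130, measured 29 and 38 TPM under DMSO, 28 and 31 under PFI-3, 27 and 32 under BI-9564 and 22 and 25 under P+B. The P+B libraries lay below the other 6, and the single compounds overlapped DMSO. The log2 difference with P+B was −0.48 (SE 0.17, limma adjusted p = 0.148), or −0.29 without DMSO replicate 2 and −0.67 without DMSO replicate 1. With the replicate number as a block the adjusted p was 0.0447, but the fold stayed under 1.5, and over the 19 alternative settings the adjusted p ran from 0.0447 to 0.450.

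*Jak1* (chr4:101152367-101265282), a kinase bound to gp130 and LIFR, measured 40 and 37 TPM under DMSO, 40 and 34 under PFI-3, 51 and 48 under BI-9564 and 48 and 50 under P+B. The 4 libraries with BI-9564, alone or in P+B, were all above the 4 without it. How many of all tested genes split in this way was not counted. The log2 difference was 0.35 with BI-9564 (SE 0.13, limma adjusted p = 0.260) and 0.34 with P+B (adjusted p = 0.157), against −0.06 with PFI-3. None of these passed, and BI-9564 and P+B had DMSO as their common control.

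*Stat3* (chr11:100885098-100939540) measured 39 and 41 TPM under DMSO, 47 and 53 under PFI-3, 41 and 38 under BI-9564 and 55 and 51 under P+B. Here the libraries with PFI-3, alone or in P+B, were the 4 highest, and BI-9564 overlapped DMSO. The share of all tested genes with such a split was not counted. With P+B the log2 difference was 0.40 (SE 0.12, limma adjusted p = 0.0990), and with PFI-3 it was 0.31 (adjusted p = 0.669). *Stat3* and *Jak1* thus did not share an order over the treatments, and neither passed the test against DMSO.

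**Figure D1:**
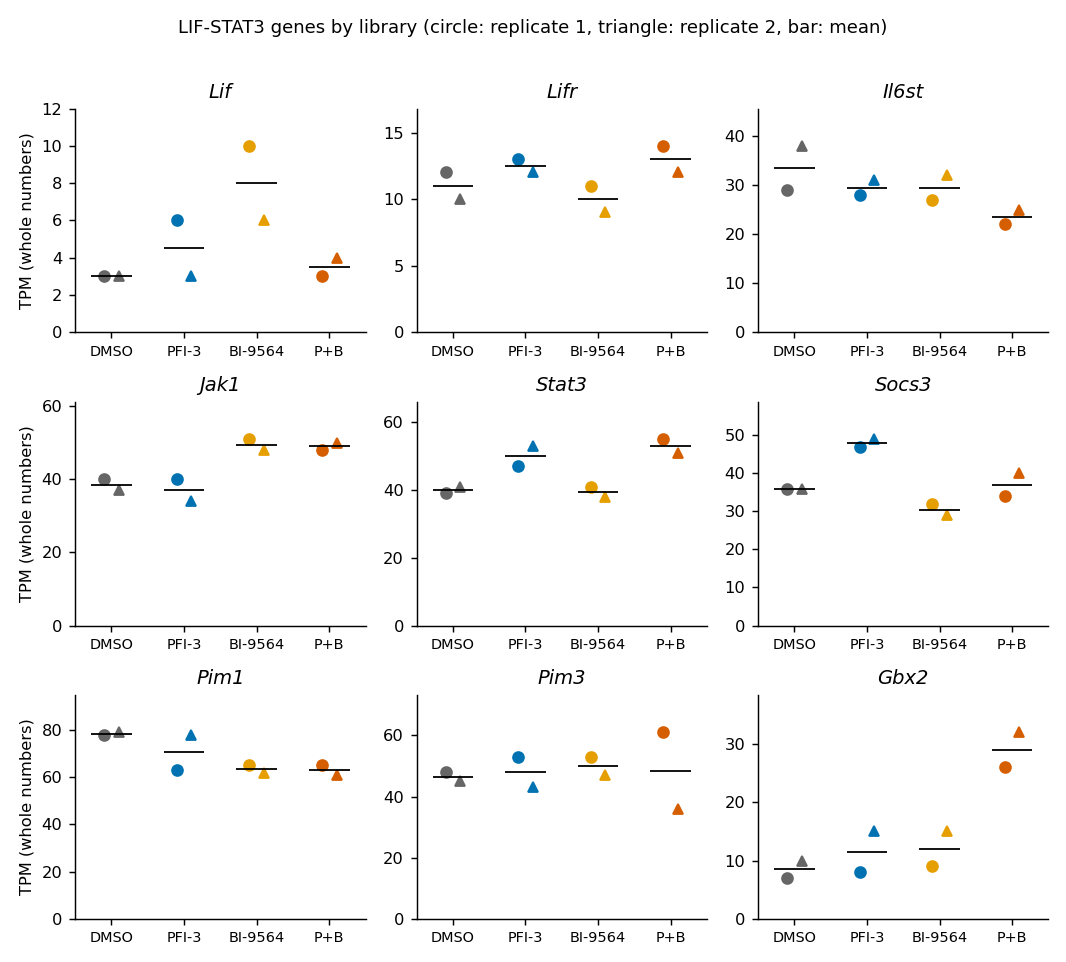
TPM of the 9 genes in each library, one panel a gene, with the 4 treatments along the horizontal axis, TPM from 0 on the vertical axis, circles for replicate 1, triangles for replicate 2 and bars for the group mean. *Gbx2* at 26 and 32 TPM under P+B stands above its other 6 libraries, while *Socs3*, *Pim1* and *Pim3* do not.

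*Gbx2* (chr1:89927956-89931179), a homeobox factor that can hold mouse ESCs undifferentiated when it is overexpressed, measured 7 and 10 TPM under DMSO, 8 and 15 under PFI-3, 9 and 15 under BI-9564 and 26 and 32 under P+B. The first 3 groups overlapped one another, and the highest of their 6 libraries was at 15 TPM, below both P+B libraries. The group means were 8.50 ± 2.12 TPM under DMSO, 11.5 ± 4.95 under PFI-3, 12.0 ± 4.24 under BI-9564 and 29.0 ± 4.24 under P+B (SD, n = 2 each).

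As a description of the difference for which the gene was chosen, *Gbx2* in P+B was 3.41 times its DMSO level in mean TPM, a log2 difference of 1.67, with 1.75 in the pair of replicate 1 libraries and 1.58 in the replicate 2 pair. The single compounds differed from DMSO by 0.36 (PFI-3) and 0.43 (BI-9564) on the log2 scale, and their sum fell short of the P+B difference by 0.88. The one comparison that is independent of the choice, BI-9564 against PFI-3, gave a log2 difference of 0.08 with a 95% interval from −0.70 to 0.86 (limma adjusted p = 0.948), so that a difference between the single compounds of up to about that size was not detectable. In each group the replicate 2 library held more *Gbx2* than the replicate 1 library. The same was true of *Jun* itself, which measured 1970 and 2877 TPM under DMSO, 1570 and 2227 under PFI-3, 2071 and 3011 under BI-9564 and 1569 and 2159 under P+B, and the part of *Jun* in the *Gbx2* levels was not tested.

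*Socs3* (chr11:117966079-117970047), the feedback inhibitor and a common readout of STAT3 activity, measured 36 and 36 TPM under DMSO, 47 and 49 under PFI-3, 32 and 29 under BI-9564 and 34 and 40 under P+B. The PFI-3 libraries were the highest and the BI-9564 libraries the lowest, and P+B spanned the DMSO level. Against DMSO the log2 difference was 0.03 with P+B, with a 95% interval from −0.26 to 0.33 (limma adjusted p = 0.906). The sign of so small a value turned when the libraries were rescaled (−0.01 with quantile normalization, −0.06 with median centring). With PFI-3 it was 0.40 (SE 0.13, adjusted p = 0.594) and with BI-9564 −0.23 (adjusted p = 0.434). Compared directly, BI-9564 was below PFI-3 by −0.64 on the log2 scale (SE 0.13), which did not pass in limma (adjusted p = 0.103) and did with the replicate block (adjusted p = 0.0449).

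The PIM kinases, which promote survival and growth and are made in response to many cytokines, were the other targets among the members. *Pim1* (chr17:29490753-29496112) was the most abundant member, at 78 and 79 TPM under DMSO, 63 and 78 under PFI-3, 65 and 62 under BI-9564 and 65 and 61 under P+B. Both BI-9564 and both P+B libraries were below DMSO, and PFI-3 overlapped it. The log2 difference with P+B was −0.31 (SE 0.12, limma adjusted p = 0.180), with a 95% interval from −0.59 to −0.03. *Pim3* (chr15:88862186-88865726) measured 48 and 45 TPM under DMSO, 53 and 43 under PFI-3, 53 and 47 under BI-9564 and 61 and 36 under P+B. The 2 P+B libraries stood on either side of all others, so that the log2 difference of 0.01 has a wide 95% interval, from −0.51 to 0.53, and takes the sign of whichever library is kept (0.39 with replicate 1 and −0.36 with replicate 2 of P+B). Its sign also turned with quantile normalization (−0.01) and with median centring (−0.08).

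**Figure D2:**
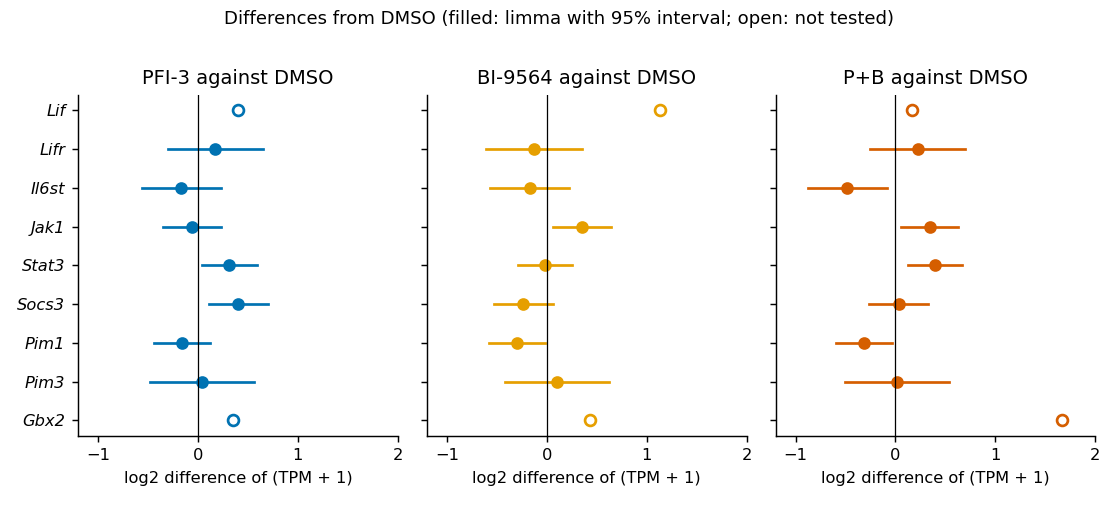
Log2 difference of (TPM + 1) from DMSO for the 9 genes, one panel a treatment, with filled points and lines for the limma estimate and its 95% interval and open points for the values that were not tested (*Gbx2*, chosen on this contrast, and *Lif*, under the filter). With P+B, *Gbx2* is at 1.67, while the other 7 tested genes run from −0.48 to 0.40.

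Of the 8 members other than *Gbx2*, 7 could be tested, and limma called 0 of 7 with P+B against DMSO, where it called 4% of all tested genes. At an unadjusted p under 0.05 there were 4, beside 22.6% of all tested genes, namely *Stat3* and *Jak1* on the higher side and *Pim1* and *Il6st* on the lower side. These were also the 4 of 7 whose P+B and DMSO libraries did not overlap, a position held by 47.5% of all tested genes (28.6% on the higher and 18.9% on the lower side), so the members' share is close to the background. With PFI-3 limma called 0 of 7 (0% of all tested genes), with 2 at an unadjusted p under 0.05 (6.79% of all tested genes), *Socs3* and *Stat3*, which were also the 2 that did not overlap DMSO, both on the higher side (29.3% of all tested genes, 16.5% higher and 12.8% lower). With BI-9564 it called 0 of 7 (0.108% of all tested genes), with 2 at an unadjusted p under 0.05 (14.9% of all tested genes), *Jak1* and *Pim1*. In that comparison 3 of 7 did not overlap DMSO, *Jak1* above and *Socs3* and *Pim1* below (41.2% of all tested genes, 22.9% higher and 18.3% lower).

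Between treatments, too, limma called 0 of the 7 members. P+B against PFI-3 called 1.31% of all tested genes and P+B against BI-9564 0.196%. At an unadjusted p under 0.05 the first had 2 of 7 members (16.6% of all tested genes) and the second 1 of 7 (7.97%). BI-9564 against PFI-3, which called 0.108% of all tested genes, had 3 of 7 at that threshold (14.2%), *Socs3* and *Stat3* lower and *Jak1* higher with BI-9564. With the replicate block that comparison called 1.48% of all tested genes, and *Socs3* was the 1 member among them. In the test of P+B against the sum of the single compounds 0 of 7 members had an unadjusted p under 0.05 (3.26% of all tested genes), and the lowest adjusted p of the members was 1.00 (0% of all tested genes passed).

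The rest of the pathway was followed through 64 more genes listed by role from general knowledge, of which 46 passed the filter. With P+B against DMSO limma called 9 of these 46, 1 higher and 8 lower, where 1.28% of all tested genes were called higher and 2.72% lower. At an unadjusted p under 0.05 there were 16 of the 46 (34.8%, beside 22.6% of all tested genes). The median log2 difference of the 46 was 0.05, beside 0.06 over all tested genes. PFI-3 alone called 0 of 46, with 7 at an unadjusted p under 0.05 (15.2%, beside 6.79% of all tested genes). BI-9564 alone also called 0, again with 7 (beside 14.9% of all tested genes), or 2 with the replicate block (*Timp1* and *Bcl3*, with 1.53% of all tested genes called). With P+B the block called 10 of 46, and 7.02% of all tested genes. P+B against PFI-3 called 3 of 46, *Il6ra* (log2 difference −1.44) and *Timp1* (−0.96) lower and *Pim2* (0.78) higher with P+B, none of which remained when any one of the 8 libraries was left out. Without the block that comparison called 1.31% of all tested genes, with 13 of 46 at an unadjusted p under 0.05 (28.3%, beside 16.6% of all tested genes). The block called 7, adding on the lower side *Cntfr* (adjusted p = 0.0332), *Socs5* (0.0408), *Myc* (0.0328) and *Ccnd1* (0.0216), where it called 3.43% of all tested genes. P+B against BI-9564 called 0 of 46 (0.196% of all tested genes), with 10 at an unadjusted p under 0.05 (21.7%, beside 7.97% of all tested genes). With the block 2 were called, both lower with P+B, *Cntfr* (adjusted p = 0.0495) and *Myc* (0.0203), where it called 0.802% of all tested genes. BI-9564 against PFI-3 called 0 of 46 (0.108% of all tested genes), with 9 at an unadjusted p under 0.05 (19.6%, beside 14.2% of all tested genes). With the block 3 were called, *Klf4* (adjusted p = 0.0313), *Tfcp2l1* (0.0451) and *Bcl3* (0.0291), all lower with BI-9564, where it called 1.48% of all tested genes. The number with P+B against DMSO depends on the libraries used: it was 0 when only the 4 DMSO and P+B libraries were fitted, and it ran from 0 without DMSO replicate 1 to 6 without either PFI-3 library.

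The IL-6 family ligands were hardly expressed. Of 8 listed, 7 were under the filter, at 4 TPM or less in each library, and the eighth, *Ctf1* (cardiotrophin), was erratic between replicates, at 6 and 7 TPM under DMSO and 13 and 3 under P+B. Among 5 other receptor chains, 2 were tested and both were called lower with P+B (2.72% of all tested genes). *Il6ra*, the IL-6 binding chain that pairs with gp130, measured 25 and 23 TPM under DMSO, 22 and 27 under PFI-3, 19 and 17 under BI-9564 and 7 and 10 under P+B. The P+B libraries were below the other 6, and the log2 difference was −1.41 (SE 0.20, limma adjusted p = 0.00886). *Il6ra* was also lower in P+B than in PFI-3, by −1.44 (limma adjusted p = 0.0202).

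*Cntfr*, the receptor chain for ciliary neurotrophic factor, which signals through LIFR and gp130, measured 14 and 21 TPM under DMSO, 5 and 13 under PFI-3, 7 and 13 under BI-9564 and 2 and 4 under P+B. Its log2 difference with P+B was −2.23 (SE 0.48, limma adjusted p = 0.0407), the largest fall among the listed genes, at a level where 1 TPM weighs much. The call was kept in 8 of 18 alternatives and lost when any DMSO, BI-9564 or P+B library was left out, with adjusted p up to 0.190. Both single compounds were below DMSO in each library without passing (−0.99 for PFI-3 and −0.78 for BI-9564). The 3 chains not tested, *Il11ra1*, *Osmr* and *Il27ra*, were at 3 TPM or less.

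Of the other JAK kinases 0 of 3 were called with P+B (4% of all tested genes). *Jak3* differed by 0.53 on the log2 scale (limma adjusted p = 0.0703), *Tyk2* by 0.09 and *Jak2* by −0.01. Of the other STAT factors, *Stat2* and *Stat5b* each differed by 0.29 with P+B without passing, and *Stat4* and *Stat5a* were under the filter.

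Among 13 tested negative regulators (SOCS, PIAS and phosphatase genes), 2 were called lower with P+B and 0 higher (2.72% and 1.28% of all tested genes). *Socs1*, a JAK inhibitor, measured 44 and 67 TPM under DMSO, 34 and 35 under PFI-3, 38 and 46 under BI-9564 and 31 and 27 under P+B, a log2 difference of −0.89 (SE 0.20, limma adjusted p = 0.0456) that was −0.59 without DMSO replicate 2 (adjusted p = 0.167). *Socs5*, another SOCS gene, measured 25 and 25 TPM under DMSO, 21 and 29 under PFI-3, 19 and 19 under BI-9564 and 14 and 14 under P+B, a log2 difference of −0.79 (adjusted p = 0.0438). That call was kept in 10 of 19 alternatives. *Socs2*, of the same family, differed by 0.31 and did not pass. *Cish*, another STAT-induced inhibitor, was under the filter at 7 and 1 TPM under DMSO and 3 and 0 under P+B. The median log2 difference of the 13 was 0.04, beside 0.03 for *Socs3*.

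In the arm that links gp130 to SHP2 and ERK, 1 of 6 tested adaptors was called lower with P+B (2.72% of all tested genes). *Gab1*, a docking protein and by far the most abundant of these genes, measured 347 and 385 TPM under DMSO, 284 and 336 under PFI-3, 258 and 297 under BI-9564 and 212 and 226 under P+B. Its log2 difference with P+B was −0.74 (SE 0.11, limma adjusted p = 0.0103). With BI-9564 alone it was −0.40 (adjusted p = 0.178), and with PFI-3 alone −0.24. *Sos1*, which activates RAS, and the adaptor *Shc1* differed by 0.32 and −0.14 with P+B and did not pass.

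**Figure D3:**
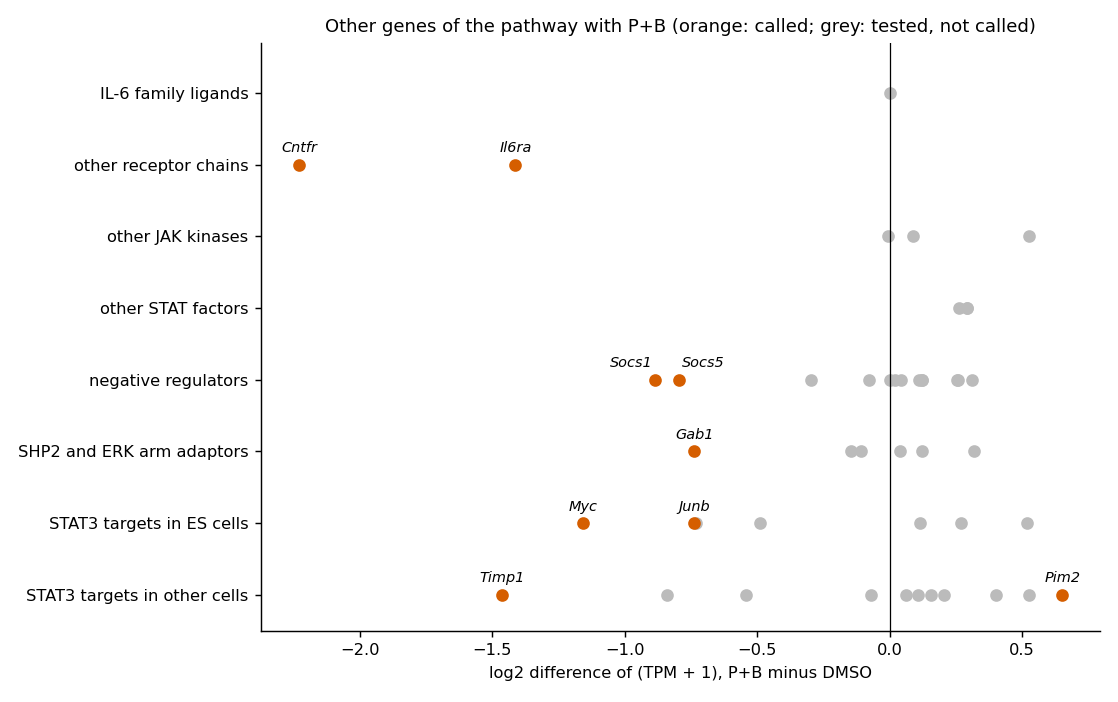
Log2 difference of (TPM + 1) between P+B and DMSO for the 46 tested pathway genes outside the 9 members, one row a role, with called genes in orange and named and the others in grey. The 8 called genes that fell lie between −2.23 and −0.74, and the 1 that rose, *Pim2*, is at 0.65.

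Other STAT3 targets, then, did not follow *Gbx2* as a group. With the 3 members *Socs3*, *Pim1* and *Pim3*, 25 targets other than *Gbx2* were listed and 21 tested. Beside the members, 8 (7 tested) were listed as targets in ES cells. The remaining 14 (11 tested), with *Pim2*, *Timp1* and *Ccnd1*, were listed as targets in other cells. Of the 21 limma called 1 higher and 3 lower with P+B (1.28% and 2.72% of all tested genes). The 7 ES cell targets had a median log2 difference of −0.49, with 0 called higher and 2 lower. The 11 from other cells had a median of 0.11, with 1 called higher and 1 lower. At an unadjusted limma p under 0.05 there were 11 of the 21 (52.4%, beside 22.6% of all tested genes), some higher and some lower. The median of the 21 log2 differences was 0.03, with 12 above 0 and 9 below, beside a median of 0.06 over all tested genes, and the highest was 0.65. The sign of so small a median carries no direction, since median centring moved that of all genes to −0.03.

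The target that rose was *Pim2*, the third PIM kinase gene, which was listed as a target in other cells. It measured 16 and 17 TPM under DMSO, 16 and 14 under PFI-3, 23 and 23 under BI-9564 and 26 and 27 under P+B. The 4 libraries with BI-9564 were thus above the 4 without, a split whose share among all tested genes was not counted. The log2 difference with P+B was 0.65 (SE 0.15, limma adjusted p = 0.0462), and against PFI-3 it was 0.78 (adjusted p = 0.0478). Its fold against DMSO passed 1.5 by little, and with median centring the log2 difference was 0.56 and no longer called (adjusted p = 0.0668). The call with P+B against DMSO was kept in 5 of 19 alternatives. It was lost whichever of the 8 libraries was left out.

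The targets that fell were *Myc*, *Junb* and *Timp1*. *Myc*, a growth factor-induced transcription factor that STAT3 sustains in ESCs, measured 40 and 32 TPM under DMSO, 26 and 25 under PFI-3, 32 and 33 under BI-9564 and 16 and 15 under P+B, a log2 difference of −1.16 (SE 0.15, limma adjusted p = 0.00546). *Junb*, a partner in AP-1 dimers, measured 48 and 45 TPM under DMSO, 33 and 39 under PFI-3, 31 and 25 under BI-9564 and 26 and 29 under P+B, a log2 difference of −0.74 (adjusted p = 0.0370). Both P+B libraries were lower than both DMSO libraries in each case, and for *Junb* BI-9564 alone lay about as low as P+B (−0.72, adjusted p = 0.120).

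*Timp1*, a secreted inhibitor of metalloproteinases, measured 194 and 191 TPM under DMSO, 154 and 119 under PFI-3, 113 and 115 under BI-9564 and 81 and 59 under P+B. No pair of groups overlapped, and the log2 difference with P+B was −1.46 (SE 0.16, limma adjusted p = 0.00310). Against PFI-3 it was −0.96 (adjusted p = 0.0336). BI-9564 alone gave −0.75, which did not pass (adjusted p = 0.130) unless the replicate block was fitted (adjusted p = 0.0335). *Ccnd1* (cyclin D1), at 40 and 54 TPM under DMSO and 25 and 26 under P+B, differed by −0.84, just short of the threshold (adjusted p = 0.0539) and past it with the block (0.0157).

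Among the targets best known in ESCs, *Tfcp2l1*, which can stand in for LIF when overexpressed, measured 42 and 28 TPM under DMSO, 54 and 42 under PFI-3, 34 and 28 under BI-9564 and 42 and 33 under P+B. *Klf4* measured 32 and 25 TPM under DMSO, 53 and 48 under PFI-3, 35 and 26 under BI-9564 and 48 and 35 under P+B. Both had their highest group mean with PFI-3, where *Klf4* differed from DMSO by 0.81 on the log2 scale (limma adjusted p = 0.514), and with P+B they differed by 0.11 (*Tfcp2l1*) and 0.52 (*Klf4*, adjusted p = 0.189). The related factor *Klf5* measured 203 and 166 TPM under DMSO and 144 and 118 under P+B, a log2 difference of −0.49 (adjusted p = 0.125). In BI-9564 against PFI-3, 13 of the 21 tested targets were lower with BI-9564 and 8 were higher. Limma called 0 of the 21 (0.108% of all tested genes), and with the replicate block 4 (1.48% of all tested genes). These 4, all lower with BI-9564, were *Socs3*, *Tfcp2l1*, *Klf4* and *Bcl3*. *Bcl3*, an IκB family protein that LIF induces in ESCs, had the largest of these differences, −1.66 (limma adjusted p = 0.0727, with the block 0.0291), from 34 and 40 TPM under PFI-3 and 15 and 8 under BI-9564. It measured 27 and 32 TPM under DMSO and 20 and 15 under P+B.

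The likeness of each gene to *Gbx2* was measured as the root mean square difference of log2(TPM + 1), each gene centred on its own mean, over the 8 libraries. A gene that did not vary at all would be 0.699 from *Gbx2*, and 4753 of 10221 tested genes were closer than that. Closest were *Ganc* (0.253), *Dnajc1* (0.296), *Zswim5* (0.308), *Acer3* (0.314) and *Axin2* (0.316), none of them on the pathway lists. *Ganc* measured 2 and 3 TPM under DMSO and 7 and 10 under P+B, near the filter. *Axin2*, the feedback gene of Wnt signalling, measured 17 and 26 TPM under DMSO, 25 and 43 under PFI-3, 30 and 37 under BI-9564 and 42 and 57 under P+B.

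Of the pathway genes described here, *Pim2* (0.535, rank 472) had the profile closest to *Gbx2*. Of the 21 tested STAT3 targets, 6 were closer than a flat profile, *Pim2*, *Bcl6* (0.602), *Irf1* (0.616), *Birc5* (0.636), *Sall4* (0.679) and *Mcl1* (0.685). Among them 1, *Sall4*, was listed as a target in ES cells and 5 as targets in other cells. Of the 7 tested members other than *Gbx2*, 3 were closer than a flat profile, *Stat3* (0.589), *Jak1* (0.640) and *Lifr* (0.683). Over all tested genes that was 4753 of 10221. *Klf4* (0.743), *Socs3* (0.745), *Pim1* (0.778), *Pim3* (0.785), *Tfcp2l1* (0.818), *Il6st* (0.831), *Klf5* (0.936), *Myc* (1.12) and *Bcl3* (1.15) were among the genes farther from it than a flat profile. The profile of *Socs3* was itself followed most closely by *Dimt1* (0.0725), *Krcc1* (0.0845) and *Cacng7* (0.0889), where a flat profile is at 0.239.

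**Figure D4:**
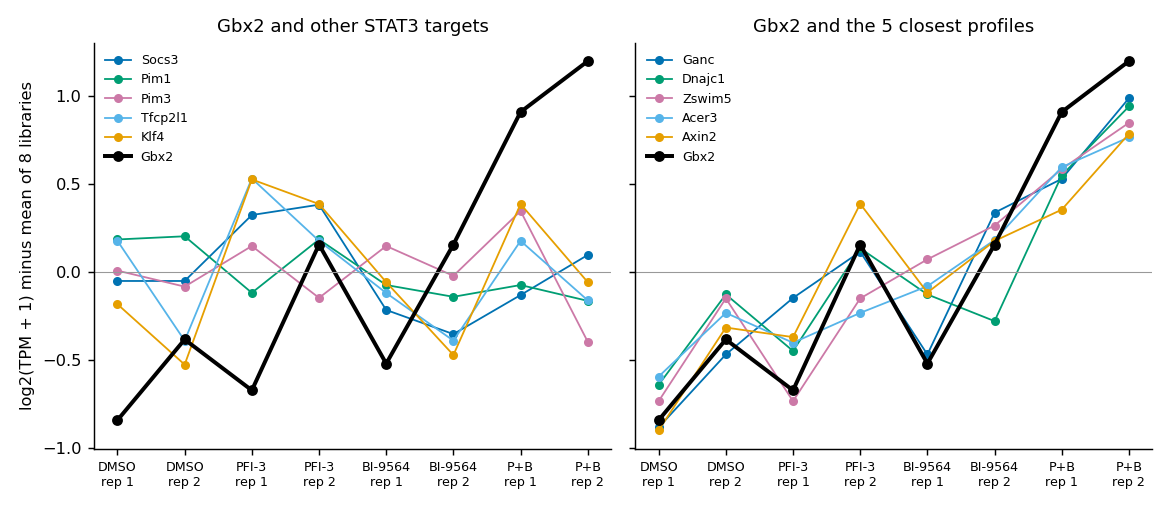
Log2(TPM + 1) minus the gene's mean over the 8 libraries, on the vertical axis, for each library along the horizontal axis, with lines only to join the points of one gene. *Gbx2* (black) is set on the left beside 5 other STAT3 targets, *Socs3*, *Pim1*, *Pim3*, *Tfcp2l1* and *Klf4*, which do not share its P+B level. All 5 were farther from *Gbx2* than a flat profile, and the 6 tested targets that were closer, *Pim2* among them, are not shown. On the right *Gbx2* is beside the 5 genes with the smallest root mean square difference, from 0.253 to 0.316, which were chosen for that likeness.

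Of the 9 called pathway genes, 7 had an entry among the promoter windows, and the STAT motif TTCNNNGAA was found in 1 of them, *Gab1* (TTCAGAGAA). *Socs5* and *Myc* had no entry. The wider spacing and the AP-1 motif were found in 0 of 7.

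Markers of other cell types moved a little with P+B. The summed level of 6 trophoblast markers, of which 5 reached 5 TPM in some library, was 22 in both DMSO libraries, 21 to 26 in the PFI-3, 23 to 31 in the BI-9564 and 33 to 34 in the P+B libraries. *Elf5* was at 1 TPM or less in each library. *Cdx2* measured 1 and 0 TPM under DMSO and 5 and 10 under P+B, and *Hand1* went the other way, from 4 and 6 to 1 and 1. The summed level of 6 primitive endoderm markers was 4 to 5 with DMSO and 6 to 10 with P+B, with *Sox7* and *Pdgfra* at 0 in all libraries. Each of these 6 was under the filter and at 5 TPM or less in each library, where whole numbers are coarse. Their part in the levels of *Gbx2* and the other genes with P+B was not tested.

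Some of these genes overlap others on the annotation (GENCODE M21, GRCm38): *Gbx2* with the transcript *D130058E05Rik* on the other strand, *Pim1* with the antisense gene *Gm26885*, *Stat3* with *Stat5a*, *Jak1* with *Raver2*, *Il6ra* with *Gm42809*, *Gab1* with *Gm31105*, *Junb* with *Prdx2* and *Timp1* with *Syn1*. Whether the counting used strand is not given in the sources used here, so the reads of such partners cannot be told apart.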

How the data were processed

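The 8 libraries were made from total RNA with a poly(A)-selecting mRNA-seq kit. The authors deposited 1 table of 50600 named rows and 8 sample columns. Its values are treated as a score: the authors give expression in TPM, but each value was a whole number, and the libraries summed to 991574 to 991897, short of the TPM total by 0.579 to 0.612 per gene above 0. The submitters' processing notes name bcl2fastq, Bowtie2 2.2.5, RSEM 1.3.0 and the build mm10, and the annotation is not given in the sources used here. The depth of the libraries is unknown from TPM, so no interval for counting error is given, and DESeq2, which the authors used and which needs counts, was not run.

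Samples were grouped by their titles, all 8 sample columns were used, and scripts fitted log2(TPM + 1) with limma 3.58.1 in R 4.3.3 (lmFit, contrasts.fit and eBayes with trend) to the 4 groups together, with 4 residual degrees of freedom before moderation and no block. Tested were the 10222 genes that averaged 5 TPM or more, adjusted by Benjamini-Hochberg within each comparison. A gene was called at an adjusted p under 0.05 and a fold of at least 1.5 (only the adjusted p for P+B against the sum of the single compounds). The procedure was tested on simulated data.

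The members and the gene lists were chosen with earlier results of these data known. One result is not reported here and enters no count over a list. The names given are all members, every listed pathway gene called without the block in any comparison, up to 3 tested genes a list with the largest difference between P+B and DMSO, *Tfcp2l1*, *Klf4*, *Klf5*, *Myc*, *Socs1*, *Cish* and *Bcl3*, the 5 genes most like *Gbx2* and the 3 most like *Socs3*, and *Jun*. Names of genes that the filter left out, of marker genes and of overlapping genes, and of targets closer to *Gbx2* than a flat profile, are given beside their counts, chosen after their values were seen.

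Groups share replicate numbers in the labels, which do not say what a number marks. Replicate differences correlated across genes in each of the 6 pairs of groups (Pearson's r 0.143 to 0.236). Libraries with the same number were therefore also fitted as pairs, with the replicate number as a block. The main fit and its calls did not use this pairing. The blocked value stands beside each call of a member or listed pathway gene that it changes. The genes most like *Gbx2* or *Socs3* were chosen on these libraries and are given without a test. Alternatives were this block, pseudocounts of 0.5 and 5, filters at a mean of 1, at 20 and none, quantile normalization, median centring, no trend, only the libraries compared, no fold threshold, and each library left out. For the pathway counts between treatments these were added after the data were seen. Promoter sequences are from RefSeq on GRCm38.p6, and positions from GENCODE M21.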

Additional observations from a re-analysis of the deposited data

How the results depend on the processing

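With 2 libraries a group and values in whole TPM, small differences are hard to detect. Differences under a fold of 1.5 could not be called by the rule itself, whatever their p. *Lif*, at a few TPM, was under the filter and could not be called either. The count of members called was 0 under each alternative in each comparison but one: with the replicate block, BI-9564 against PFI-3 had 1 (*Socs3*). With that block BI-9564 against DMSO had 2 other pathway genes (*Timp1* and *Bcl3*) in place of 0, and the pairing changed no call from called to not called among the 9 pathway genes called with P+B, to which it added *Ccnd1*. Those 9 became 4 with a filter at a mean of 1, 4 with no filter, 0 when only the DMSO and P+B libraries were fitted, and 0 to 6 when a library was left out (0 without DMSO replicate 1, 2 without DMSO replicate 2 or either P+B library, 4 and 5 without BI-9564 replicates 1 and 2, 6 without either PFI-3 library). *Pim2* and *Socs1* lost the call whichever of the 8 libraries was left out, and *Junb* with each but BI-9564 replicate 2. *Cntfr* lost it without any DMSO, BI-9564 or P+B library, and *Socs5* kept it in 10 of 19 alternatives. Between treatments, the 3 pathway genes called in P+B against PFI-3 became 7 with the replicate block, 1 with a filter at a mean of 1, and 0 with no filter, without a trend, with only the libraries compared and without any one library. The 0 in P+B against BI-9564 became 2 with the block and 1 (*Myc*) with a filter at 20, quantile normalization or median centring, and the 0 in BI-9564 against PFI-3 became 3 with the block. The fit of only the libraries compared gives no value for P+B against the sum of the single compounds.

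The sign of small differences turned as follows. *Socs3* with P+B was −0.0056 with quantile normalization and −0.059 with median centring, and −0.080 to 0.15 with a library left out. *Pim3* with P+B was −0.0074 and −0.080, and −0.36 to 0.39. With PFI-3, median centring gave −0.0093 for *Pim3* and −0.025 for *Il6ra*, and leaving out a library gave −0.060 to 0.77 for *Gbx2*, −0.11 to 0.19 for *Pim3*, −0.36 to 0.022 for *Il6st*, −0.17 to 0.055 for *Jak1*, −0.12 to 0.16 for *Il6ra*, −0.24 to 0.21 for *Socs5* and 0.00 to 0.81 for *Lif*. With BI-9564 it gave −0.072 to 0.035 for *Stat3*, −0.26 to 0.0050 for *Lifr*, −0.36 to 0.019 for *Il6st* and −0.29 to 0.022 for *Myc*. In BI-9564 against PFI-3 it gave −0.34 to 0.49 for *Gbx2*, −0.29 to 0.011 for *Pim1*, −0.085 to 0.21 for *Pim3* and −0.12 to 0.12 for *Il6st*. *Lif* with P+B was 0.00 to 0.32. The cause of these changes was not tested. *Gbx2* with P+B stayed between 1.34 and 1.90 over its 18 alternatives.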
